A study of Rattus norvegicus with 16 samples.

Results

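The difference between the lungs of spontaneously hypertensive (SH) rats and Sprague Dawley (SD) rats was measured as 1 contrast over both exposures: the mean of SH minus SD in air and SH minus SD in sulfur dioxide (SO2). It used all 16 arrays of the series, each hybridised with biotin-labelled total RNA from lung. Source names placed 4 arrays in each of 4 groups, with each strain breathing either air or SO2, and the design text counts the 4 as biological replicates. SH rats are an inbred strain that develops high blood pressure, SD rats are an outbred stock, and SO2 is an irritant gas. The series title offers the SH rat as an experimental model for airway disease from SO2, and the contrast asks how far the strains differed whichever gas they breathed. Exposure dose and duration, age, sex and the substrain of the SH rats were not given in the sources used here.

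A strain difference in a tissue's RNA can come from many kinds of genes. The major histocompatibility complex, called RT1 in the rat, holds class I genes that display peptides to T cells and that vary greatly between strains. Interferon-induced genes such as the Mx and Ifit families act against viruses, and the lung also carries cytochrome P450 enzymes and glutathione transferases that process inhaled chemicals. Lung tissue mixes many cell types, so fewer cells of a type and less RNA per cell cannot be told apart in these data.

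Values are signals on a linear intensity scale, 1 for each probe set (a group of short probes for 1 transcript) and array. Differences are SH minus SD on the log2(signal + 16) scale, and p-values are limma's, adjusted over 11106 probe sets that passed a filter on dim signals. The call rule was an adjusted p under 0.05. Lung markers were bright on every array: Sftpc, a surfactant protein, measured 24004 to 45111 and Ager, a marker of alveolar type I cells, 10829 to 19344, whereas the liver gene Alb measured 53.2 to 154. The actin 3'/5' ratio, which rises as RNA degrades, was 1.96 ± 0.599 (standard deviation, n = 8) in SH rats and 1.72 ± 0.506 (standard deviation, n = 8) in SD rats. It was highest on SH SO2 replicate 1 (3.12) and SD SO2 replicate 2 (2.94), and the remaining arrays ran from 1.29 to 2.36.

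The array labelled SD air replicate 2 went against its label. A position was computed for each array on the probe sets called without it, where 0 is the mean of the other SD arrays and 1 is the mean of the other SH arrays. That array had a median position of 0.812 over 282 probe sets (quartiles 0.573 and 1.01), and it lay nearer to the SH mean on 227 of them (80.5%). The other 7 SD arrays had medians of -0.120 to 0.0627 and the 8 SH arrays medians of 0.724 to 1.07, but their SD mean includes the array labelled SD air replicate 2. With that array left out of the means, the medians were 0.0452 to 0.202 and 0.786 to 1.08. By either reference the array labelled SD air replicate 2 fell within the SH range. What set it apart was not tested. Counts and the values of the genes described are given with all 16 arrays and with 15, that is, without this array; where 1 value stands alone it is from 16.

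**Figure D1:**
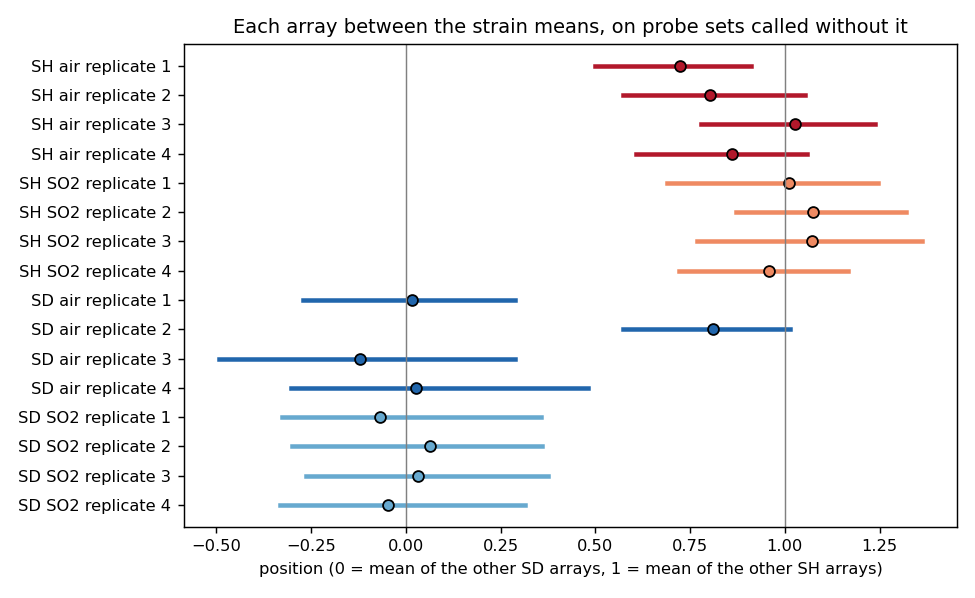
Median position of each of the 16 arrays between the strain means (x axis, 0 for SD and 1 for SH, no unit) with bars from the lower to the upper quartile over the probe sets called when that array was left out. The array labelled SD air replicate 2 sits at 0.812, among the SH arrays. The other SD arrays lie between -0.120 and 0.0627, on a scale whose SD mean includes that array.

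With all 16 arrays, limma called 172 of 11106 probe sets (1.55%) for the average strain effect. Of these 81 were higher in SH rats (0.729%) and 91 were lower (0.819%). With 15 arrays it called 282 (2.54%), of which 153 were higher (1.38%) and 129 lower (1.16%), and all 172 of the first count were among them with the same sign. Differences of the 172 had a median size of 0.68 on the log2 scale (range 0.29 to 3.58), and 46 were past 2-fold. The number in the sample titles ran lower in SH air (40 to 43) than in any SD air array, and with this number as a covariate 56 probe sets were called, 55 of them among the 172. An effect of the order that these numbers may stand for and an effect of strain cannot be fully told apart here.

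Signals of SH and SD arrays did not overlap at all for 30 probe sets (0.27%) with 8 arrays against 8, and for 110 (0.99%) with 8 SH arrays against the other 7 SD arrays. Among the 282 calls with 15 arrays, 105 had no overlap between the 8 SH and the 7 SD arrays. On these 105 the array labelled SD air replicate 2 lay inside the range of the SH arrays for 78, inside that of the SD arrays for 11 and between the ranges for 16.

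Counted by gene, with 1 probe set each, 128 of 8056 genes (1.59%) were called with 16 arrays, 58 higher and 70 lower. With 15 arrays the count was 204 (2.53%), with 103 higher (1.28%) and 101 lower (1.25%). The genes described next are the 15 highest and 15 lowest among those called both ways, with the same sign in both exposures and no overlap between the 8 SH and 7 SD arrays. For these genes the lack of overlap with the 7 SD arrays was thus a condition of choice and not a finding. For each, the lowest, median and highest signal of the 8 SH arrays is set beside the same of the other 7 SD arrays. With 15 arrays the differences of these genes ran from 0.85 to 3.34 and from -0.72 to -3.0, and each was larger in size than with 16.

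**Figure D2:**
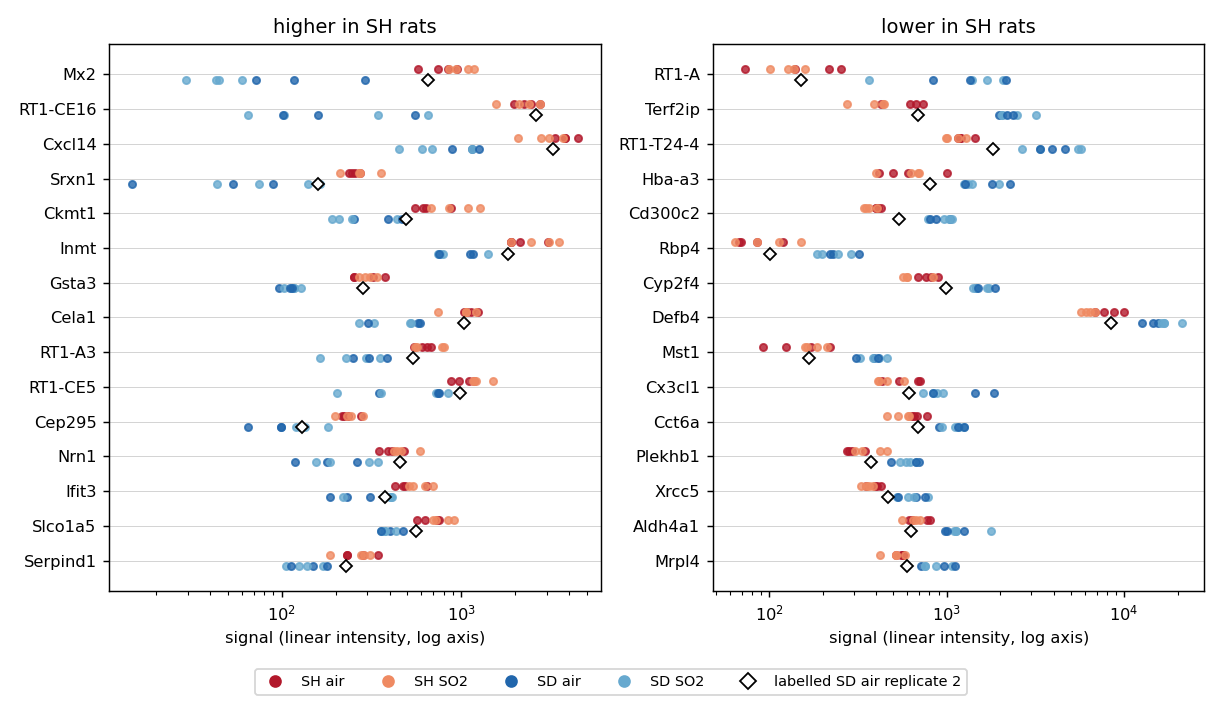
Signal (x axis, linear intensity on a log axis) of the 15 genes highest and the 15 lowest in SH rats, with 1 point for each array in 4 colours by group and an open diamond for the array labelled SD air replicate 2. The 8 SH arrays lie apart from the other 7 SD arrays in each row because the genes were chosen so. The diamond falls within the SH range for 18 of the 30 genes, between the ranges for 9 and within the SD range for 3.

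Class I genes of the RT1 complex stood at both ends of the strain difference. RT1-CE16, a class I heavy chain gene, measured 1554, 2310 and 2747 (lowest, median and highest) in SH rats and 64.7, 160 and 652 in the other SD arrays, with 2603 on the array labelled SD air replicate 2. The SH and the 7 SD arrays did not overlap, and the difference was 2.89 (SE 0.49, adjusted p = 0.00313) with 16 arrays and 3.34 with 15. RT1-A, which encodes the classical class I heavy chain, ran the other way. Its probe set measured 73, 139 and 255 in SH rats, against 365, 1387 and 2154 in the SD arrays, and 151 on the array labelled SD air replicate 2. Again the groups did not overlap, at -2.62 (SE 0.42, adjusted p = 0.00192) and -3.0 with 15 arrays. RT1-T24-4, also annotated to class I, measured 992, 1179 and 1446 against 2641, 3937 and 5731, and it was lower in all 8 SH arrays than in any of the 8 SD arrays (-1.62, adjusted p = 2.02e-05; -1.76 with 15 arrays). The array labelled SD air replicate 2 read 1818.5, between the ranges.

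Smaller class I differences ran upward. RT1-A3 was 1.06 higher in SH rats (adjusted p = 0.00095; 1.16 with 15 arrays), with 546 to 806 in SH rats and 164 to 386 in the 7 SD arrays, and all 16 arrays separated by label. The array labelled SD air replicate 2 read 540, just under the lowest SH value. RT1-CE5 was 1.01 higher (adjusted p = 0.0278; 1.11 with 15 arrays). Its call was lost in 6 of the 16 fits that each left out 1 array, without SH air replicates 2 and 4, SH SO2 replicates 2 and 3, SD air replicate 1 and SD SO2 replicate 4 (adjusted p = 0.0515 to 0.0679, difference 0.86 to 1.03), and with its probe sets averaged the difference was 0.43 (adjusted p = 0.721).

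Of 11 class I and associated genes tested, 3 were higher (RT1-CE16, RT1-A3 and RT1-CE5) and 1 was lower (RT1-T24-4), with either set of arrays, where 1.59% (16 arrays) and 2.53% (15) of all genes were called. Their median difference was 0.20, against -0.0011 over all genes tested. RT1-A was not in that list. B2m, the light chain that all class I molecules share, did not pass the test and had an average close to 0 in the plot of interferon and class I genes. Of 8 class II genes 0 were called by their brightest probe set (3 at an unadjusted p under 0.05, median -0.062), and among 13 genes of peptide processing only Tapbp, the chaperone tapasin that loads class I molecules, was called (0.37, adjusted p = 0.0305; 0.36 with 15 arrays). The Tapbp call was lost in 7 of the 16 leave-one-out fits (adjusted p up to 0.0807), those without SH air replicates 1, 3 and 4, SH SO2 replicate 2, SD air replicate 1 and SD SO2 replicates 2 and 4.

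The probe sets of RT1-CE16, RT1-CE5 and RT1-T24-4 carry the suffix x_at, the manufacturer's mark for probes shared among several sequences, so their signals may mix related class I transcripts. Probe sequences were not used here, and a difference in RNA level cannot be told apart from a difference between the strains in the sequence under the probes. The deepest difference of any called probe set, -3.58 (adjusted p = 0.00307), belonged to an x_at probe set annotated to both RT1-A3 and RT1-A2, and it is therefore not assigned to a gene. It had a median of 224 in SH rats and 5336 in the 7 SD arrays, and measured 129 on the array labelled SD air replicate 2. Its direction was opposite to that of the RT1-A3 probe set described above.

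The 250 bases before the annotated start of the called class I genes in the list are shown because members of the list moved in opposite directions. They are read 5′ to 3′ on the strand of the gene from RefSeq's GRCr8 assembly, and all 4 lie on chromosome 20. Capitals mark the letters CCAAT on either strand (ATTGG on the other), which 34.0% of the 33469 promoters of this length hold. RT1-A3 is at chr20:4849201-4849450 (plus strand), RT1-CE5 at chr20:3484091-3484340 (minus strand), RT1-CE16 at chr20:3265444-3265693 (minus strand) and RT1-T24-4 at chr20:2689083-2689332 (plus strand).
RT1-A3: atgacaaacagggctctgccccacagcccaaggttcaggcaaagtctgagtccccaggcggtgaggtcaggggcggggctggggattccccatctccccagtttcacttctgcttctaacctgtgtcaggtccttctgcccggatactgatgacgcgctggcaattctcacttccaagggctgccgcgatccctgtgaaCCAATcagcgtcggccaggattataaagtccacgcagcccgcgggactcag
RT1-CE5: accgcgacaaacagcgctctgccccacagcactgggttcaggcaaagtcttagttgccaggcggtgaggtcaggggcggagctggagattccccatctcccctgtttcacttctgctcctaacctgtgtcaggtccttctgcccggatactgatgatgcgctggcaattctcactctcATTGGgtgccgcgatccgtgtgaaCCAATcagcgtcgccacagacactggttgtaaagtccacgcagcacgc
RT1-CE16: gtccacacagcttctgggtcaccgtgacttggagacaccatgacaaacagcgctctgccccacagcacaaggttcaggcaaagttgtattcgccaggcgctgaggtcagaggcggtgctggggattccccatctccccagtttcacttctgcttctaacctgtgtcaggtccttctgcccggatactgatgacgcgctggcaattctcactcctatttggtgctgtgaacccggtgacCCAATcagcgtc
RT1-T24-4: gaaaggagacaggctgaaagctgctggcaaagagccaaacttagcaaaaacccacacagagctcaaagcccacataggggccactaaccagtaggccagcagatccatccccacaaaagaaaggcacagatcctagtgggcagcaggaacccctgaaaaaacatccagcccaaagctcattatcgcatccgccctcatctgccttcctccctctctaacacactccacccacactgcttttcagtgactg
In a global alignment RT1-A3 and RT1-CE5 were identical at 84.2% of columns, RT1-CE16 was identical to them at 65.7% and 66.4%, and RT1-T24-4 to the others at 43.7% to 47.4%. CCAAT occurred once each in RT1-A3 and RT1-CE16, at 2 places in RT1-CE5 and at 0 in RT1-T24-4. These are sequences of the reference rat and not of either strain measured.

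Interferon-induced genes were the list with the most calls in 1 direction. Mx2, an antiviral GTPase, measured 577, 895 and 1182 in SH rats and 29.2, 60 and 293 in the other 7 SD arrays, with 653 on the array labelled SD air replicate 2. The groups did not overlap, and the difference was 2.97 (SE 0.28, adjusted p = 1.69e-05) with 16 arrays and 3.23 with 15. A second, dimmer Mx2 probe set was also higher, by 0.73 (adjusted p = 0.00445), so both probe sets rose but by unequal amounts.

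Ifit3, an interferon-induced partner of Ifit1, measured 427 to 696 in SH rats and 186 to 411 in SD rats, the array labelled SD air replicate 2 included at 377. It was 0.80 higher (adjusted p = 0.00717; 0.88 with 15 arrays) and the strains did not overlap. Irf7, the transcription factor that drives interferon production, was 0.88 higher (adjusted p = 0.00525; 0.96 with 15 arrays), with 1260 to 3007 in SH rats against 775 to 1567 in the 7 SD arrays, which overlap. Usp18, an inhibitor of interferon signalling, was 0.68 higher (adjusted p = 0.0109; 0.78 with 15 arrays), Mx1 0.69 higher (adjusted p = 0.0133; 0.76 with 15 arrays) and Ifit1 0.66 higher (adjusted p = 0.0461; 0.71 with 15 arrays).

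Of 19 interferon response genes tested, 6 were higher and 0 lower with 16 arrays, and 7 and 0 with 15, when Oas1a, a sensor of double-stranded RNA, was called too (0.45, adjusted p = 0.0475). Over all genes 0.72% and 1.28% were called higher. With 15 arrays 16 of the 19 lay above 0, against 3925 of 8056 genes. The median of the list was 0.25, against -0.0011 over all genes. Summed over the list, signals overlapped between the strains, at 30936 to 41288 in SH rats and 24556 to 38837 in the 7 SD arrays. Receptor subunits, which were outside the list and were chosen after their values were seen, did not share 1 direction. Ifnar1, of the type I interferon receptor, was 0.62 higher in SH rats by its brightest probe set (adjusted p = 0.0109, and 0.73 with 15 arrays). Its other probe sets, at 0.11, 0.44 and 0.50, were not called with 16 arrays (adjusted p = 0.115 to 0.911). The last of these was called with 15 (0.60, adjusted p = 0.0178). Ifngr1, of the interferon gamma receptor, was 0.57 lower (adjusted p = 0.000368, and -0.60 with 15 arrays).

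**Figure D3:**
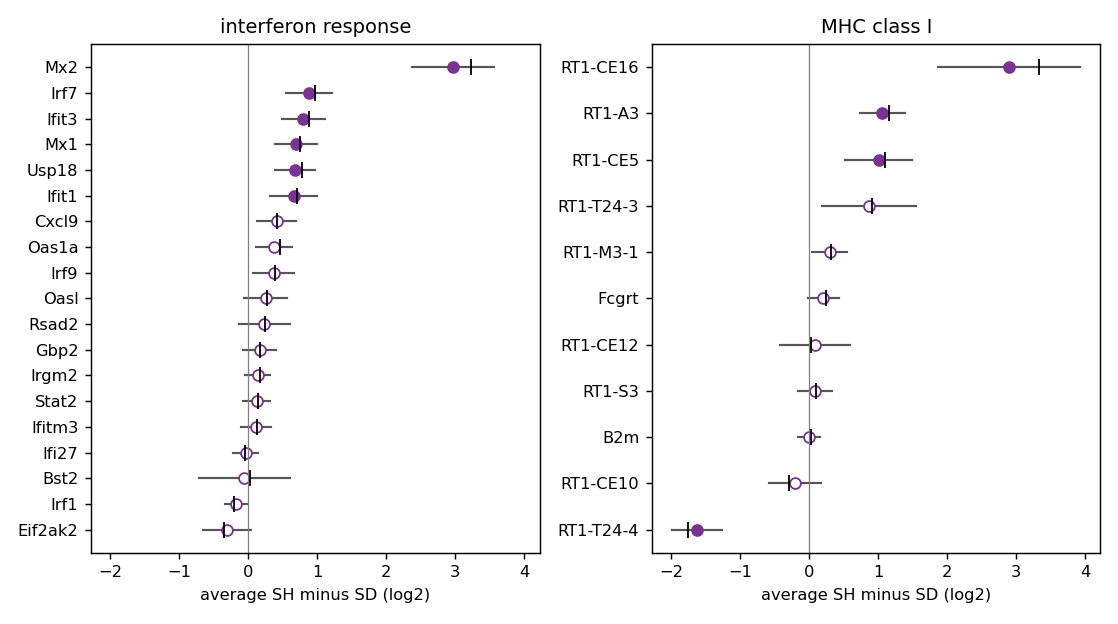
Average SH minus SD difference (x axis, log2 units) of the 19 interferon response genes and the 11 MHC class I genes tested, with bars for the 95% interval from 16 arrays, filled circles for called genes, open circles for the others and a vertical tick for the value from 15 arrays. The 6 filled interferon genes lie above 0, while the filled class I genes lie on both sides.

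The 250 bases before the start of Ifit3 and Irf7 are shown because both genes were higher and both hold the core of an interferon-stimulated response element. The letters searched were GAAA, any 2 bases (NN) and GAAA again, on either strand (TTTC, NN and TTTC on the other), in capitals here, from RefSeq's GRCr8 assembly, with Ifit3 at chr1:241527076-241527325 (plus strand) and Irf7 at chr1:205800024-205800273 (minus strand).
Ifit3: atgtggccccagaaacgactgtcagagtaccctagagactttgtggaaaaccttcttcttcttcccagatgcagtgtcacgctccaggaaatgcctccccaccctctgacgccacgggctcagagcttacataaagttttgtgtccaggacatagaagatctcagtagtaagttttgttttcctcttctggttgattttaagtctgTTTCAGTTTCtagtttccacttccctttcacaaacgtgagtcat
Irf7: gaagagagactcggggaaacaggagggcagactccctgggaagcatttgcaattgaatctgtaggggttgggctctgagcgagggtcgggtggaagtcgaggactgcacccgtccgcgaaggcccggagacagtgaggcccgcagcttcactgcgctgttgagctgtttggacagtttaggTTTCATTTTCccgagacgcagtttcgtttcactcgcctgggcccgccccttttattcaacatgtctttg
These letters occurred in 3.61% of 27457 promoters of the same length and in 2.66% of the 6738 genes tested that have an entry. In the interferon list they occurred in 10 of 16 genes with an entry. Called members held them in 2 of 3 (Mx1 did not) and members that were not called in 8 of 13. The called members Mx2, Ifit1 and Usp18 have no entry. A match describes the letters only.

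The other genes among the 15 highest are given next, with the lists to which some belong. Cxcl14, a chemokine made by epithelium, measured 2078, 3518 and 4489 in SH rats and 452, 892 and 1264 in the 7 SD arrays. The groups did not overlap, the array labelled SD air replicate 2 read 3256, and the difference was 1.72 (adjusted p = 0.000149; 1.92 with 15 arrays). Srxn1, sulfiredoxin, which repairs oxidised peroxiredoxins, measured 211 to 359 in SH rats and 14.6 to 164 in all 8 SD arrays (1.57, adjusted p = 0.00563; 1.76 with 15 arrays). Here the array labelled SD air replicate 2 read 160, within the SD range. The 14.6, from SD air replicate 3, lay under the lowest 10th percentile of signal of any array (17), so the size of this difference is uncertain. Of 27 Nrf2 target and antioxidant genes tested Srxn1 was the 1 called, where 1.59% of all genes were called, and the list had a median of 0.02.

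Gsta3, an alpha class glutathione transferase, measured 252, 300 and 378 in SH rats and 96.7, 115 and 129 in the 7 SD arrays, at 1.14 (adjusted p = 0.00127; 1.30 with 15 arrays). The array labelled SD air replicate 2 read 283, above every other SD array. The counts of this paragraph are read against 1.59% of all genes called with 16 arrays. Gsta3 was the only called member of 18 glutathione transferases tested, and Gstm1, a mu class member, was at -0.07 (adjusted p = 0.867). Inmt, which methylates tryptamines and is abundant in lung, measured 1892 to 3523 against 739 to 1413 in the 7 SD arrays (1.24, adjusted p = 0.000578). All SH arrays lay above all 8 SD arrays, but the array labelled SD air replicate 2 read 1831, just under the lowest SH value. Inmt was also the only called gene of 11 fibroblast markers. Among 18 other genes of conjugation and hydrolysis, the aldo-keto reductase Akr1b8 (0.72) and the carboxylesterase Ces1d (0.51) were higher and Aldh2, mitochondrial aldehyde dehydrogenase, was lower (-0.58, adjusted p = 0.00384). The Ces1d call (adjusted p = 0.023) was lost in the fits that left out SH air replicate 2, SH air replicate 3, SH SO2 replicate 3, SD air replicate 3 or SD SO2 replicate 1 in turn (adjusted p = 0.0509 to 0.0651).

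Ckmt1, the mitochondrial creatine kinase, was 1.28 higher (adjusted p = 0.000373; 1.33 with 15 arrays), and its SH arrays lay above all 8 SD arrays. The array labelled SD air replicate 2 read 492, between the SH arrays and the other SD arrays. Cela1, a serine elastase, was 1.13 higher (adjusted p = 0.00279; 1.27 with 15 arrays), at 742 to 1240 against 271 to 586, with 1031 on the array labelled SD air replicate 2. The remaining genes among the 15 highest were Cep295, a centriole protein, at 0.94, the neuronal protein Nrn1 at 0.88, the organic anion transporter Slco1a5 at 0.79 and Serpind1, heparin cofactor II, at 0.79. The Nrn1 call (adjusted p = 0.0316) was lost in 10 of the 16 leave-one-out fits (adjusted p = 0.0501 to 0.0812), more than for any other of the 15.

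Among genes lower in SH rats, Terf2ip had the largest difference outside the class I genes within the leading 15. Terf2ip encodes a telomere-binding protein, and it measured 276, 440 and 733 in SH rats and 1982, 2180 and 3167 in the 7 SD arrays (-2.02, SE 0.20, adjusted p = 1.78e-05; -2.22 with 15 arrays). It was the 1 gene called of 9 in the telomere list (median -0.16), where 1.59% of all genes were called, and no other member moved with it past the threshold. Hba-a3, an alpha globin gene, measured 399 to 1009 against 1246 to 2282 in the 7 SD arrays, and the array labelled SD air replicate 2 read 806, within the SH range (-1.26, adjusted p = 0.00182; -1.40 with 15 arrays). The 6 erythroid and platelet genes tested had a median of 0.02 and 0 calls with 16 arrays (2 at an unadjusted p under 0.05). With 15 arrays Hbb, beta globin, was called lower (-0.41, adjusted p = 0.045), and the summed signal of that list overlapped between the strains, at 8725 to 14019 and 12036 to 18794.

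Cd300c2, an immune receptor of myeloid cells, measured 343 to 429 in SH rats and 784 to 1073 in the 7 SD arrays, with 540 on the array labelled SD air replicate 2. It separated all 16 arrays by label (-1.14, adjusted p = 1.69e-05; -1.23 with 15 arrays). Defb4, a secreted antimicrobial beta-defensin, was bright in both strains, at 5717, 6885 and 9967 in SH rats against 12630, 16081 and 21205 in SD rats (-1.04, adjusted p = 2.02e-05; -1.14 with 15 arrays). The array labelled SD air replicate 2 read 8378, within the SH range. Cx3cl1, the membrane-bound chemokine fractalkine, measured 412 to 708 against 733 to 1857 (-0.87, adjusted p = 0.0109; -1.01 with 15 arrays). Rbp4, the carrier of retinol in plasma, was at -1.10 and Mst1, a serum growth factor like protein, at -1.03.

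The last 5 of the lowest genes had smaller differences. Cct6a, a subunit of the cytosolic chaperonin, was at -0.75, Plekhb1, a pleckstrin domain protein, at -0.75, and Xrcc5, the Ku80 subunit of DNA end joining, at -0.69. Aldh4a1, an enzyme of proline breakdown, was at -0.68 and Mrpl4, a mitochondrial ribosomal protein, at -0.65. Xrcc5 and Mrpl4 separated all 16 arrays by label, with the array labelled SD air replicate 2 between the ranges, at 469 and 598.

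Of 21 cytochrome P450 and flavin oxidase genes tested 3 were lower and 1 was higher, where 1.59% of all genes were called. The median of the list was 0.03, and 11 of the 21 lay above 0 with 15 arrays. Cyp2f4, an enzyme of club cells that activates inhaled compounds, measured 567, 727 and 898 in SH rats and 1399, 1493 and 1874 in the 7 SD arrays, and the array labelled SD air replicate 2 read 988, between the groups (-1.05, adjusted p = 2.9e-05; -1.14 with 15 arrays). Cyp2a3, also of airway epithelium, was at -0.83 (adjusted p = 0.00963; -0.85 with 15 arrays). Cyp1a1, the enzyme induced through the aryl hydrocarbon receptor, measured 12.3, 17 and 119 in SH rats and 31.9, 435 and 658 in the 7 SD arrays, so the groups overlapped (-2.47, adjusted p = 0.00496; -2.68 with 15 arrays). Its SH value of 119 came from SH air replicate 1. The other SH air arrays read 12.3 to 15.8, under the lowest 10th percentile of signal of any array (17), so the size of this difference is uncertain.

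Cyp2e1, which oxidises ethanol, was the higher one, at 0.74 (adjusted p = 0.0472; 0.86 with 15 arrays). It was the called gene nearest the threshold, and its call was lost in 12 of the 16 leave-one-out fits (adjusted p = 0.0569 to 0.117). Cyp2f4 was also 1 of only 3 club cell markers tested. The club cell sum, which the bright secretoglobin Scgb1a1 dominates, overlapped between the strains, at 28545 to 33697 in SH rats and 30573 to 44080 in SD rats.

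Cd36, a transporter of long-chain fatty acids that is known to be defective in many SH rat colonies, measured 209, 324 and 915 in SH rats and 875, 1611 and 2495 in the 7 SD arrays. The array labelled SD air replicate 2 read 655, and the ranges overlapped slightly (-1.94, adjusted p = 0.000153; -2.11 with 15 arrays). A probe set annotated to both Cd36 and Cd36l1 was lower too, at -2.93, with medians of 386 and 4965. Cd36 was the only called gene of 29 in fatty acid uptake and oxidation (median 0.02). Ephx2, soluble epoxide hydrolase, another gene often named for this strain, was at 0.16 (adjusted p = 0.753). The list of 20 SH rat candidate genes, chosen with earlier results of these data known, had 1 higher member, Spon1 (0.45, adjusted p = 0.0176; 0.41 and adjusted p = 0.0514 without SH air replicate 3), and 1 lower, Cd36. With 15 arrays 3 were higher, Spon1, the proteoglycan Ogn (0.75) and the Fc receptor Fcgr3a (0.58), and 1 was lower. Over all genes 1.59% were called with 16 arrays and 2.53% with 15.

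Lists on blood pressure, salt transport and matrix are read against 1.59% of all genes called with 16 arrays and 2.53% with 15, and against 946 of 8056 genes at an unadjusted p under 0.05. Of 25 blood pressure and vasoactive genes tested limma called 0 with 16 arrays (2 at an unadjusted p under 0.05), and 1 with 15, Ddah1, which breaks down an inhibitor of nitric oxide synthase (-0.38, adjusted p = 0.0218). Of 16 genes of sodium, chloride and water transport 0 were called with either set (2 at an unadjusted p under 0.05 with 16 arrays). In lists of this size 0 or 1 call is near the share over all genes. Extracellular matrix genes had 1 higher and 1 lower of 42 (13 at an unadjusted p under 0.05). With 15 arrays 2 were higher and 4 lower: Eln, elastin, at -0.80, the cross-linking enzymes Lox (-0.59) and Loxl1 (-0.58), Col3a1 (-0.40), the proteoglycan Ogn (0.75) and the protease Htra1 (0.40). With 16 arrays the calls were Htra1 and Loxl1 only, and these were lost in 8 and 11 of the 16 leave-one-out fits (adjusted p up to 0.0863 and 0.106).

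The next lists are read against the same shares, 1.59% of all genes called with 16 arrays and 2.53% with 15, and 1 call in a list of this size is near them. Inflammatory cytokines had 1 higher member, Il1b (0.64, adjusted p = 0.0109), and 1 lower, Cx3cl1, among 18. In the complement and coagulation list, Thbd, thrombomodulin, was the 1 called of 20 (0.32, adjusted p = 0.0109), but with its probe sets averaged it was at 0.21 (adjusted p = 0.301). With 15 arrays F5, coagulation factor V, was called too (0.71, adjusted p = 0.00881). Per2, a core clock repressor, was the 1 called of 14 clock genes (0.77, adjusted p = 0.0342, lost in 10 of the 16 leave-one-out fits, adjusted p up to 0.0879). In sterol synthesis Lss was lower (-0.51, adjusted p = 0.0305, lost in 9 of the 16, adjusted p up to 0.0802), the 1 called of 22. With 15 arrays the desaturase Scd2 was called higher (0.40, adjusted p = 0.0476) and Sqle, squalene epoxidase, lower (-1.06, adjusted p = 0.0447), beside Lss. Of 39 cytosolic ribosomal protein genes and 66 respiratory chain genes, 0 were called with 16 arrays (2 at an unadjusted p under 0.05 in each), with medians of -0.0057 and -0.030.

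Over 18 lists of cell type markers, 3 of 128 entries tested were called with 16 arrays (2.34%, against 1.59% of all genes) and 7 with 15 (5.47%, against 2.53%). With 16 arrays the calls were Cyp2f4 (club cells), Inmt (fibroblasts) and Car3 (adipocytes), 1 in each list, and 0 in the other 15 lists. With 15 arrays Hbb was called as given above, and S100a8 (1.24, adjusted p = 0.00395) and S100a9 (0.85, adjusted p = 0.0498), calcium-binding proteins of neutrophils, were called higher, as 2 of 6 neutrophil markers whose median was -0.086. On the array labelled SD air replicate 2, S100a8 read 446, within the SH range, and S100a9 read 1884, above every SH array. Clca1, of mucous cells, was called lower with 15 arrays (-1.54, adjusted p = 0.0248), and the 4 goblet cell genes had a median of -0.62. Summed signals of all cell type lists overlapped between the strains, including goblet cells at 481 to 809 in SH rats and 689 to 2722 in the 7 SD arrays. Their part in the strain differences was not tested.

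The strain difference was then set against exposure. A probe set was termed constant when it was called for the average and the 95% interval of its interaction (the strain difference in SO2 minus that in air) stayed within the size of the average itself. Under that rule neither exposure alone can carry the difference. With 16 arrays 40 probe sets were constant (0.36%), 14 higher and 26 lower, and with 15 arrays 87 were (0.783%), 39 higher and 48 lower, with 37 in common. Limma called 0 probe sets for the interaction itself with either set, and 516 (4.65%) and 653 (5.88%) had an unadjusted p under 0.05. The intervals were wide, reaching a median of 0.56 to either side among the 172 calls, so a probe set that was not termed constant was not thereby shown to vary.

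Of the 172 calls with 16 arrays 171 had the same sign in air and in SO2, and of the 282 with 15 arrays 281 did. The strain effect in air alone gave 0 calls with 16 arrays (713 probe sets, 6.42%, at an unadjusted p under 0.05) and 90 with 15 (0.81%; 1077, 9.7%, unadjusted). In SO2 alone there were 91 calls (0.819%) with 16 arrays and 116 (1.04%) with 15, of which 60 were higher (0.54%) and 56 lower (0.504%). Calls in both exposures with the same sign numbered 0 with 16 arrays (215 probe sets, 1.94%, at an unadjusted p under 0.05 in both) and 46 with 15 (0.414%; 292, 2.63%, unadjusted), of which 20 were higher and 26 lower and 45 were also constant. The difference was larger in SO2 than in air for 134 of the 172 calls (77.9%) with 16 arrays, whereas with 15 arrays it was larger in 145 of 282 (51.4%). The median sizes were 0.58 in air and 0.77 in SO2 with 16 arrays, and 0.65 in each with 15, so the larger size in SO2 was seen with 16 arrays and not with 15.

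**Figure D4:**
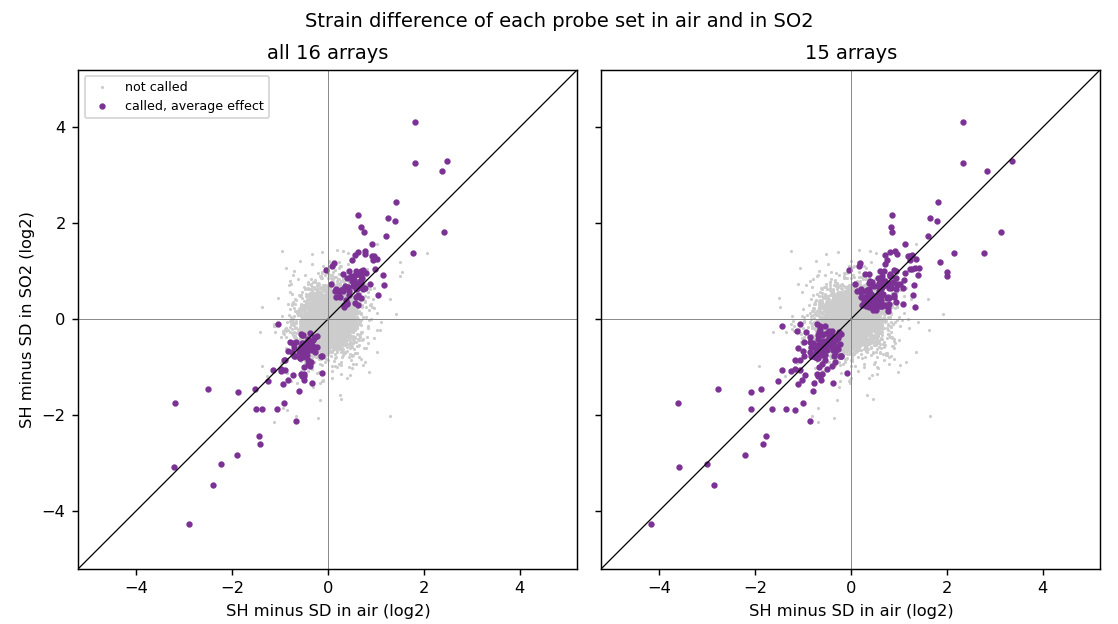
Strain difference (SH minus SD, log2 units) of each of 11106 probe sets in air (x axis) and in SO2 (y axis), with 16 arrays at left and without the array labelled SD air replicate 2 at right, where purple points are called for the average and the diagonal marks equal differences. All but 1 of the called points lie in the quadrants of equal sign, and with 15 arrays they spread about evenly on both sides of the diagonal.

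Each exposure was also fitted on its own arrays, so that calls from 1 exposure could be looked up in arrays not used to make them. With all 16 arrays the air arrays alone gave 0 calls. Of the 100 probe sets of smallest p in air, 85 had the same sign in SO2, and 93 did with 15 arrays. With 15 arrays the air arrays alone gave 66 calls, and 64 of these had the same sign in the SO2 arrays, 30 of them called there as well. Their median size was 1.10 in air and 1.06 in SO2. The SO2 arrays alone gave 79 calls, of which 77 had the same sign in air with 16 arrays and 78 with 15. Over all probe sets 56.3% (16 arrays) and 55.8% (15) had the same sign in both exposures.

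Among the constant genes, in either direction, were several of those described: RT1-CE16 (2.49 in air and 3.30 in SO2), Cxcl14 (1.41 and 2.04), Gsta3 (1.03 and 1.26), RT1-A (-2.23 and -3.01), Hba-a3 (-1.24 and -1.28), Cd300c2 (-0.93 and -1.36), Rbp4 (-1.14 and -1.07) and Cyp2f4 (-0.84 and -1.26). Ifit3 (0.87 and 0.73) met the rule with 16 arrays but not with 15, when its interval reached from -0.93 to 0.31 around an average of 0.88. Others, chosen after their values were seen, were the P2X purinoceptor P2rx4 (0.73), 1 probe set each of Isca1, an iron-sulfur cluster assembly protein (-1.01), and of Ifnar1, and Ifngr1. A second Isca1 probe set was called lower (-0.70) and was constant with 15 arrays but not with 16. Fam111a had the largest size among constant genes with a single symbol, at -3.14 (adjusted p = 0.0114), with a median of 116 in SH rats and 2269 in the 7 SD arrays. Its SH signals reached 1165 and its SD signals went down to 96.6, so the strains overlapped and it fell outside the 15 lowest.

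Some genes called on average had unlike values in air and in SO2, although none passed the interaction test. Car3, a carbonic anhydrase of fat and muscle, was called at 0.49 with -0.05 in air and 1.02 in SO2 (interaction 1.07, 95% interval 0.63 to 1.51, adjusted p = 0.456). It was the 1 probe set of the 172 whose sign differed between exposures, and its call was lost when SH air replicate 3 or SH SO2 replicate 2 was left out (adjusted p = 0.0539 and 0.0515, in that order). Il1b was at 0.13 in air and 1.16 in SO2, Htra1 at 0.07 and 0.72, and the matricellular gene Ccn1 at 0.62 and 2.17, while Loxl1 was at -1.03 and -0.09. Stat3, a transcription factor of cytokine signalling, was at -0.12 and -1.13 by its brighter probe set, and a second Stat3 probe set was not called on average (-0.23, adjusted p = 0.455). Mx2 was at 1.82 and 4.11 with 16 arrays, Defb4 at -0.59 and -1.49 and Terf2ip at -1.42 and -2.61. For each of these 8 genes the interaction had an adjusted p of 0.984. Mx2, Defb4 and Terf2ip met the rule for constancy with 15 arrays, yet their intervals for the interaction lay to 1 side of 0, at 0.90 to 2.64, -1.07 to -0.34 and -1.34 to -0.23. Pxdc1 and Gtf2i, which with Car3, Mx2 and Defb4 had the smallest interaction p among genes, were not called on average (0.09 and -0.06).

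Some called genes were neighbours in the RefSeq gene order of GRCr8. Of 127 called genes that could be placed 14 (11%) lay next to another called gene among the measured genes, and of the 7908 placed genes that were not called 239 (3.02%) lay next to a called one. With 15 arrays the counts were 24 of 203 (11.8%) and 369 of 7832 (4.71%). These shares are a description, with no test. The neighbouring pairs included Mx1 and Mx2, Ifit3 and Ifit1, and Cyp2a3 and Cyp2f4, which are members of 1 gene family each and moved in 1 direction, but also unrelated genes such as Tab2 and Sash1 (both lower) and Pls1 and Xrn1 (both lower). Other pairs with 15 arrays moved in opposite directions: Cdc42ep2 (0.45) and Pola2 (-0.79), and Spon2 (-0.68) and Slc5a1 (0.75). Runs of 3 appeared with 15 arrays: Bace2 (0.43), Mx1 and Mx2, all higher, and Clca1 (-1.54), Ccn1 (1.51) and Ddah1 (-0.38), which did not share a direction. Probe sets of gene families may share sequence, and neighbours are not independent.

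Probe sets of the same gene did not always show the same difference. Of 1113 genes with several tested probe sets 45 had a called one with 15 arrays, and in 4 of these all were called with the same sign. Among probe sets with 1 symbol no gene had called probe sets of opposite sign, but 15 of the 45 had some probe set of opposite sign, called or not. The called probe set annotated to both RT1-A3 and RT1-A2 (-3.58) was outside this count. It ran opposite to the called RT1-A3 probe set (1.06). Ythdf2, a reader of methylated RNA chosen after its values were seen, was at -1.47 (adjusted p = 2.9e-05) by 1 probe set, with medians of 138 in SH rats and 518 in the 7 SD arrays, and at 0.34 (adjusted p = 0.388) by the other. RT1-Ba, a class II chain, was at -0.94 (adjusted p = 0.00611) by a dimmer and 0.39 (adjusted p = 0.0805) by a brighter probe set. Sftpa1, surfactant protein A, was at 0.39 (adjusted p = 0.00525) and -0.016. For these 3 genes the call of 1 probe set had no counterpart in the other.

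Within a group, signals varied more among SD than among SH rats. The median within-group SD of log2 values was 0.261 for the 7 SD arrays and 0.217 for the SH arrays, and it was larger in SD rats for 64.9% of all probe sets and 66% of those called with 15 arrays.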

How the data were processed

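Lung total RNA was measured on 16 arrays, 4 in each group by source name. The deposited table holds 1 linear intensity per probe set and array, made by the authors with the Affymetrix software GCOS, per the submitters' processing notes. Its version and settings were not given in the sources used here. Trimmed means of the arrays were equal to within 1 unit, so the deposited scaling was kept. Detection calls were not used here.

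Control probe sets (57) were dropped. Of the 15866 that remained, 12783 carry 1 gene symbol in the platform's annotation table, 312 carry several and 2771 are unnamed here. Of those with 1 symbol, 12748 matched a RefSeq table of GRCr8 by Entrez identifier and 0 symbols changed. Probe sets without 1 symbol were tested but not named. Signals were taken as log2(intensity + 16), which understates changes of dim probe sets. Dropping the dimmest 30% by mean signal kept 11106 probe sets, which stand for 8056 genes.

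Limma 3.58.1 in R 4.3.3 fitted 1 mean for each of the 4 groups (lmFit, then eBayes with a trend; 12 residual degrees of freedom, or 11 with 15 arrays), and p-values were adjusted by Benjamini-Hochberg. P-values rest on the spread between arrays of a group, which the design text calls biological replicates. The contrast code was tested on simulated data.

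The genes named are the 15 highest and 15 lowest under the conditions given with them, up to 4 called members of smallest p from each list, the 5 of smallest interaction p, members of runs of 3 called neighbours, and Cd36, Ephx2, Gstm1, Acsm3 and Terf2ip. Acsm3 was too dim to be tested. A gene is represented by its brightest probe set. The contrast, the gene lists and the rule were chosen with earlier results of these data known, and the other genes (neighbouring pairs, genes called with 15 arrays, further called list members and those marked in the text) were named after their values were seen. Promoter sequences are RefSeq's for GRCr8. Plots were made in Python 3.11.15 (matplotlib 3.10.9).

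Alternatives were an offset of 1 or 64, median centring or quantile normalization of the arrays, a filter of 50% or none, a robust prior, no eBayes trend, array weights, an additive model, covariates (the title number, or the actin ratio with the 10th percentile of signal), probe sets of a gene averaged, stricter thresholds, and each array left out in turn.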

Additional observations from a re-analysis of the deposited data

Results flagged for a closer look

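For the 52 genes named, each group of 4 arrays was searched for an array whose gap to the nearest of the other 3 took up more of the whole range than Dixon's critical value for 4 arrays allows, a limit that chance passes in about 5% of groups. Of 208 gene and group pairs 13 passed it, and 3 of the 13 were on the array labelled SD air replicate 2.

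On that array Terf2ip measured 693.8, where the remaining 3 SD air arrays ran from 1982.2 to 2363.4, and Gsta3 measured 282.7 against 96.7 to 114.6. Gstm1 measured 1009.8 on it against 1406.1 to 1452.5. The array's position between the strains was flagged too, at 0.8117 where the other SD air arrays lay between -0.1202 and 0.02645. The SD mean behind those other positions included this array, so the flag rests on unlike references. With the array left out of the means, the other SD air arrays lay between 0.04519 and 0.2021, closer to it. On those values its gap to the nearest array did not pass the limit, so no flag would be raised.

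Among the other SD arrays, Inmt measured 1413.2 on SD SO2 replicate 4 against 739.2 to 787.4, and Defb4 measured 21204.9 on the same array against 16080.6 to 16846.4. Ifit3 measured 219.7 on SD SO2 replicate 2 against 404 to 411.3. On SD SO2 replicate 1 Aldh4a1 measured 1772.5 against 1099.3 to 1135, and Loxl1 309.2 against 420.4 to 442.2.

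Among the SH arrays, Cyp1a1 measured 119.2 on SH air replicate 1 against 12.3 to 15.8, and Akr1b8 measured 322 on it against 486.1 to 503.7. Usp18 measured 932.9 on SH air replicate 3 against 640.9 to 654.8. Cyp2f4 measured 838.4 on SH SO2 replicate 1 against 567.4 to 600.4, and Tapbp measured 901.9 on SH SO2 replicate 2 against 766.2 to 770.5.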

How the results depend on the processing

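The counts of 172 called, 81 higher, 91 lower, 40 constant and 0 called in both exposures stayed within 1.5 times under the other normalizations, filters, offsets and fits, with these exceptions. The title number as a covariate left 56 called, 23 higher, 33 lower and 5 constant; the cause was not tested. The threshold of 0.01 left 81, 35 and 46, and a difference of at least 1 left 46, 23 and 23, with 18 constant, since both ask for more. Calls in both exposures were 4 with an offset of 64, 14 with array weights and 2 with the 10th percentile and the actin ratio as covariates. Leaving out 1 array gave 117 to 282 called, 54 to 153 higher, 63 to 129 lower, 27 to 87 constant, 0 to 46 called in both exposures, and 0 to 64 air calls that kept their sign in SO2; each upper end was reached without the array labelled SD air replicate 2, and 2 calls in both exposures without SH air replicate 1. Limma's interaction gave 0 calls in every leave-one-out fit. No named gene that was called changed sign in any alternative. Some leading genes kept their call in every leave-one-out fit but reached an adjusted p above 0.05 in another alternative. The highest value was 0.0521 for RT1-CE16, 0.0545 for Ifit3, 0.075 for Srxn1 and Mrpl4, and 0.0768 for Aldh4a1. Serpind1 reached 0.114, Cx3cl1 0.122 and Rbp4 0.129. Among other list members Cyp1a1 reached 0.0696, Il1b 0.0905, Usp18 0.0928, Cyp2a3 0.104 and Akr1b8 0.151. No paired analysis was possible because the numbers in the titles differ on every array and the replicate numbers used here were given in accession order. Without detection calls the distance of dim signals from background is unknown, and 4 arrays a group limit the precision.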

Other observations

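Sulfur metabolism genes, which include the enzymes that clear sulfite formed from SO2, are read beside the share over all genes: 1.59% called with 16 arrays, 2.53% with 15, and 946 of 8056 at an unadjusted p under 0.05. Limma called 0 of 17 with 16 arrays (5 at an unadjusted p under 0.05) and 1 with 15, Papss2, which makes the active form of sulfate (0.47, adjusted p = 0.0476). Of 25 heat shock and unfolded protein genes 0 were called with 16 arrays (6 at an unadjusted p under 0.05), and the small heat shock protein Cryab was called with 15 (0.30, adjusted p = 0.0391). Of 20 cell cycle genes 0 were called with 16 arrays (4 at an unadjusted p under 0.05). With 15, Aurkb, a mitotic kinase, was 1.2 higher in SH rats (adjusted p = 0.00919) and Cdkn1b, a cell cycle inhibitor, 0.62 higher (adjusted p = 0.0446), while the median of the list was -0.19.

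Among the P450 and flavin oxidase genes 12 of 21 had an unadjusted p under 0.05, against 946 of 8056 over all genes, of which 1.59% passed the adjusted threshold. Cyp2e1 (0.74) and Cyp2f4, Cyp2a3 and Cyp1a1 (all below 0) were the 4 that passed the adjusted threshold, and the median of the 21 was 0.03.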
